A study of Mus musculus with 12 samples.

Results

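The MCM helicase and origin licensing genes are 10 of the 28896 gene symbols read by the array: Mcm2, Mcm3, Mcm4, Mcm5, Mcm6 and Mcm7, the licensing factors Cdc6 and Cdt1, the licensing inhibitor Gmnn and Cdc45l (now Cdc45). They were taken by array symbol, which gave 20 of 45281 probes, and no probe was chosen by its signal. Total RNA of whole kidney was read on Illumina MouseWG-6 v2 BeadChips, on which each transcript is captured by beads that carry its probe. All 12 animals were male C57BL/6 mice aged 10 weeks, with no genetic modification named in the labels. The saline group of 6 mice received 0.1% saline 2 times a day, and the colistin group of 6 received 16 mg/kg of colistin per day in 2 divided doses, with 72 hours of exposure. Colistin is a polymyxin antibiotic used against Gram-negative bacteria, and the study compared the kidney transcripts of exposed and unexposed mice.

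Before a cell copies its DNA, the proteins MCM2 to MCM7 are loaded onto replication origins as a ring that is not yet active. The origin recognition complex, CDC6 and CDT1 do the loading in G1, and geminin, the product of Gmnn, binds CDT1 and stops reloading once S phase has begun. At the start of S phase the kinase CDC7 with its subunit DBF4 phosphorylates the ring, and CDC45 and the GINS proteins join it to form the moving helicase. The genes of the ring are induced by E2F transcription factors when cells leave quiescence, and most tubule cells of the adult kidney are quiescent.

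The promoters of the detected members show where the letters of an E2F site stand, so those of Mcm5, Mcm6 and Mcm7, which hold such letters upstream of the start, are printed with that of Mcm2, which holds none. The sequences are the 250 bases before the RefSeq start of each gene on GRCm38.p6, written 5′ to 3′ on the gene's strand, with capitals marking the E2F letters.
Mcm5, chr8:75109259-75109508, plus strand: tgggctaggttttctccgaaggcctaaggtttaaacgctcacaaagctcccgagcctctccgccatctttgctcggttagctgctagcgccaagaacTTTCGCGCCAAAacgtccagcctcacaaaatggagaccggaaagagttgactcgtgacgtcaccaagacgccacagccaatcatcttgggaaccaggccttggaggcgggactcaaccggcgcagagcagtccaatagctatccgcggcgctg
Mcm6, chr1:128359706-128359955, minus strand: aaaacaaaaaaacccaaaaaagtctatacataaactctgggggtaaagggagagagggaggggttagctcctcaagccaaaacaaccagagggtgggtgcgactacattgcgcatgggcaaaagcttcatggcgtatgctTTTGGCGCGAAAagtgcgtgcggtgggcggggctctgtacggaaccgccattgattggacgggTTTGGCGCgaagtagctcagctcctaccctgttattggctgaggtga
Mcm7, chr5:138171884-138172133, minus strand: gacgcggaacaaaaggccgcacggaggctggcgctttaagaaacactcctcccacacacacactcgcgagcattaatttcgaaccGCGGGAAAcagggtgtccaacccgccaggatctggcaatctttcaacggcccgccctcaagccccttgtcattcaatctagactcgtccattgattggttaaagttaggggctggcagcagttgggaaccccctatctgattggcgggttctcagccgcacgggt
Mcm2, chr6:88898781-88899030, minus strand: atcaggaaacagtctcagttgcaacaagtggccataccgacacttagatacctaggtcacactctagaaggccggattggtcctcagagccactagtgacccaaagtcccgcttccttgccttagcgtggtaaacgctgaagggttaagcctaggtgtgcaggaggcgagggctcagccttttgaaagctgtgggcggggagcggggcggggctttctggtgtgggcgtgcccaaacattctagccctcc

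The E2F letters searched were TTTCCCGC, TTTCGCGC, TTTGCCGC and TTTGGCGC on both strands, with overlapping matches allowed, in windows of 250 bases before and 50 bases after each start. In Mcm5 the matches began 153 and 149 bases before the start and overlapped. In Mcm6 overlapping matches began 110 and 106 bases before the start, and another began 47 bases before it. In Mcm7 a match began 165 bases before the start of the window shown and another at base 17 after it, while the second RefSeq window of Mcm7 held none. Of the 10 genes, 8 were matched to the promoter table and 6 of these held the letters: Cdc6, Cdt1, Mcm3, Mcm5, Mcm6 and Mcm7, while Mcm2 and Cdc45 held none in their windows. Gmnn and Mcm4 were not matched. The letters were present in 2.60% of all 27025 genes in the table (2.26% of its 32851 windows) and in 2 of the 8 S phase and mitosis genes set beside the members below. The CCAAT box, a common promoter element, was present in 6 of the 8 matched members and in 41.1% of all genes (37.4% of all windows). The cell-cycle element CHR (TTTGAA or TTCGAA, both strands) was present in 3 of the 8 and in 21.7% of all genes (19.2% of all windows). A match describes the letters in these windows and does not show that a factor binds there.

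As a check of the tissue, all 4 proximal tubule markers and both thick ascending limb markers were detected, with saline means on the log2 scale of 14.17 for the phosphate transporter gene Slc34a1 and 13.52 for the brighter probe of Umod, the gene of uromodulin. The arrays detected between 14661 and 16154 probes each. Saline mouse 5 had the dimmest array, with a 95th percentile of the raw signal of 475 against at least 752 on the others, and saline mouse 2 lay apart on the first principal component, which held 49.2% of the variance. No 2 arrays held identical values. On both BeadChips the saline arrays took the odd positions and the colistin arrays the even ones, so position and treatment cannot be told apart. A probe counted as detected on an array when its detection p-value against the negative control beads was under 0.01, and as measured when this held on at least 4 of the 12 arrays, which 16179 probes did.

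No licensing gene passed the test between colistin and saline kidneys: 0 of 10 measured probes were called by limma, against 0.457% of all measured probes. With so small a share over all probes, a count of 0 among 10 is not particular to these genes. Their differences were small, from 0.02 to 0.50 on the log2 scale, the last that of Mcm5 (1.41-fold). The colistin mean was the higher at all 10, against 53.1% of all probes, though probes read in the same mice are not independent. In the same kidneys the proliferation gene Mki67 rose by 1.38 on that scale. Cdc6, Gmnn and Mcm3 could not be compared, because none of their probes was above background.

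Detection divided the licensing genes. Of their 20 probes, 10 were measured, and these read 7 genes: Mcm2, Mcm4, Mcm5, Mcm6, Mcm7, Cdt1 and Cdc45l. The other 10 probes were each detected on 0 of 12 arrays. They were all 4 probes of Cdc6, the only probes of Gmnn and Mcm3, 2 of the 3 probes of Mcm4, 1 of the 4 of Mcm6 and 1 of the 2 of Cdc45l. Cdc6, Gmnn and Mcm3 were therefore not above background in either group, which sets no level for them and does not show that they are absent. The lowest detection p-value of any of their probes was 0.0118, at 1 of the Cdc6 probes (ILMN_2597255), and that of the Mcm3 probe was 0.0256. The raw intensity of the Gmnn probe ran from 83.3 to 92.6 over the 12 mice, and that of the Mcm3 probe from 91.8 to 101. Probes of the same gene disagreed in this respect: the Mcm4 probe ILMN_2936427 was detected on all 12 arrays, with raw intensities from 208 to 431, while the other Mcm4 probes stayed at or below 96.2.

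**Figure D1:**
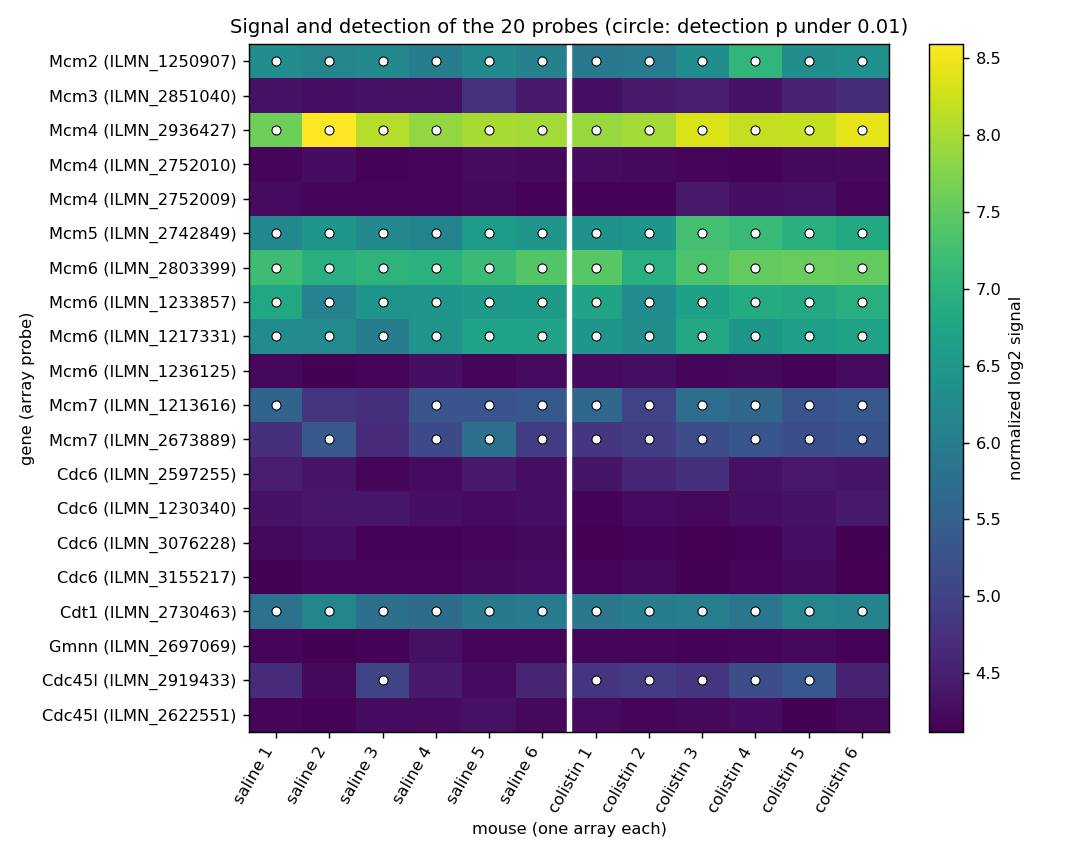
Normalized log2 signal (colour) of the 20 probes (rows) in each of 6 saline and 6 colistin mice (columns), with a circle where the detection p was under 0.01. The 10 probes without circles were detected on 0 of 12 arrays, and the kept Cdc45l probe has circles on 1 saline and 5 colistin arrays.

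Mcm5 (chromosome 8) encodes the subunit that forms with MCM2 the gate through which DNA enters the ring. Its log2 signal in saline mice had a lowest value of 6.14, a median of 6.33 and a highest of 6.57. In colistin mice the lowest was 6.40, the median 6.90 and the highest 7.25. Colistin mice 3, 4, 5 and 6 lay above every saline mouse, while colistin mice 1 (6.40) and 2 (6.47) lay within the saline range, so the groups overlapped. The means were 6.34 ± 0.18 (SD, n = 6) and 6.84 ± 0.35 (SD, n = 6), a log2 difference of 0.50 ± 0.15 (SE) or 1.41-fold, which did not pass limma's test over all 16179 probes (adjusted p = 0.228). The exact permutation test of this probe alone over every assignment of the mice gave p = 0.0195 (two-sided), unadjusted for the number of probes. With each mouse left out in turn the difference stayed between 0.42 and 0.59. It was 0.29 without background correction and 0.73 under median centring, a setting that moved the median of all probes to 0.20. It was the largest of the 10 with the settings used here. Cdc45l exceeded it in other settings, among them the authors' normalized values (0.60 against 0.51) and BeadChip 2 alone (0.41 against 0.32). Cdc45l was also the larger without saline mouse 3 (0.50 against 0.47) and, narrowly, without colistin mouse 3. The RNA is of whole kidney, so more cells that hold a transcript and more RNA per cell cannot be told apart.

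Mcm6 (chromosome 1), whose product sits in the ring beside MCM2 and MCM4, was read by 3 measured probes, each detected on all 12 arrays. At its brightest probe (ILMN_2803399) saline mice ran from 6.95 through a median of 7.10 to 7.39, and colistin mice from 6.94 through 7.47 to 7.55. Colistin mice 1, 4, 5 and 6 lay above every saline mouse, and colistin mouse 2 was the lowest of all 12. At the second probe (ILMN_1233857) saline mice ran from 6.10 through 6.48 to 6.78 and colistin mice from 6.29 through 6.78 to 6.94, and at the third (ILMN_1217331) from 6.02 through 6.36 to 6.72 and from 6.31 through 6.56 to 6.82. The groups overlapped at all 3 probes. The log2 differences were 0.26 ± 0.12, 0.25 ± 0.13 and 0.17 ± 0.13 (SE, n = 6 per group) at the 3 probes, and none passed limma's test (adjusted p = 0.446, 0.492 and 0.614). In each probe 5 of 6 colistin mice lay above the saline mean. The deviations of the brightest probe from the group means ran with those of the second (Pearson r = 0.84 over 12 mice) and less with those of the third (r = 0.52).

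Mcm7 (chromosome 5 at the first of its probes), which encodes another subunit of the ring, was read by 2 probes that did not behave alike. At ILMN_1213616 saline mice ran from 4.75 through a median of 5.30 to 5.55 and colistin mice from 5.02 through 5.47 to 5.74. The groups overlapped, with colistin mice 1, 3 and 4 above every saline mouse, and the log2 difference was 0.25 ± 0.16 (SE, n = 6 per group; limma adjusted p = 0.547). At ILMN_2673889 saline mice ran from 4.68 through 5.02 to 5.77 and colistin mice from 4.83 through 5.19 to 5.31, so that the saline range enclosed every colistin mouse. The difference there was 0.02 ± 0.17 (SE, n = 6 per group; limma adjusted p = 0.970). Each Mcm7 probe passed detection in 4 of the 6 saline mice and all 6 colistin mice, and their deviations were nearly unrelated (r = 0.05 over 12 mice), so the array gives no single reading of Mcm7.

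Mcm2 and Mcm4 complete the measured subunits. For Mcm2 (chromosome 6), whose product also carries histones at the fork, saline mice ran from 6.00 through a median of 6.19 to 6.31 and colistin mice from 5.91 through 6.31 to 7.07. Colistin mouse 4 alone stood at 7.07, with the next at 6.37, while colistin mice 1 and 2 lay below every saline mouse. The difference was 0.15 ± 0.16 (SE, n = 6 per group; limma adjusted p = 0.704), and without colistin mouse 4 it was 0.0068. For Mcm4 (chromosome 16), whose product forms with MCM6 and MCM7 a complex that unwinds DNA in vitro, saline mice ran from 7.61 through 8.00 to 8.59 and colistin mice from 7.91 through 8.19 to 8.42. Here the saline range enclosed all colistin mice, and the difference was 0.14 ± 0.15 (SE, n = 6 per group; limma adjusted p = 0.705), 0.057 without saline mouse 1 and 0.25 without saline mouse 2.

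**Figure D2:**
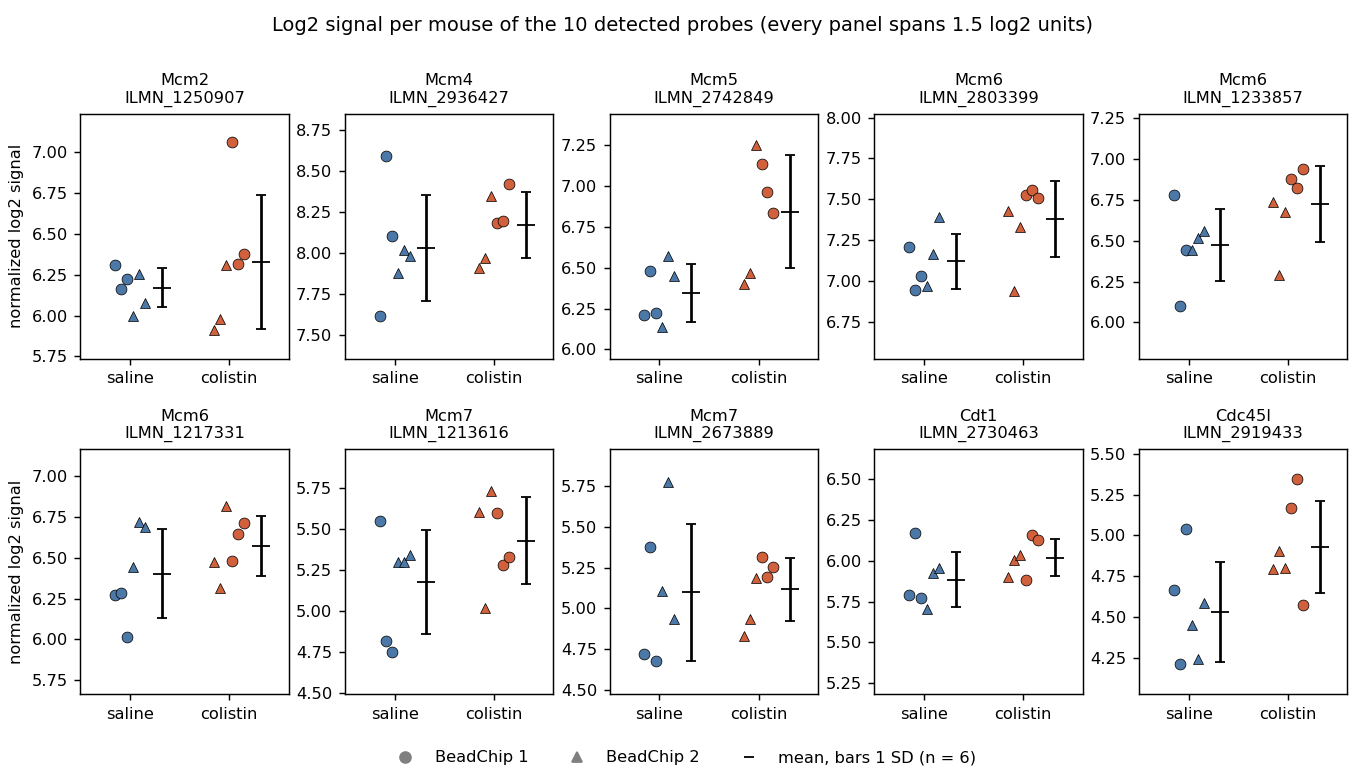
Normalized log2 signal of the 10 measured probes in each of 6 saline and 6 colistin mice, with circles for BeadChip 1, triangles for BeadChip 2, and the mean with 1 SD (n = 6) beside each group. The groups overlap at every probe, and Mcm5 shows 4 colistin mice above the highest saline value of 6.57.

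Of the factors that act on the ring, Cdt1 and Cdc45l were measured. For Cdt1 (chromosome 8), the loading factor that is destroyed in S phase, saline mice ran from 5.70 through a median of 5.86 to 6.17 and colistin mice from 5.88 through 6.02 to 6.16. All 6 colistin mice lay above the saline mean of 5.88 ± 0.17 (SD, n = 6), but saline mouse 2 was higher than all of them. The difference was 0.13 ± 0.10 (SE; limma adjusted p = 0.60). For Cdc45l (chromosome 16), the subunit that joins the ring when an origin fires, saline mice ran from 4.21 through 4.52 to 5.04 and colistin mice from 4.57 through 4.85 to 5.34. Saline mouse 3 (5.04) lay above 4 of the colistin mice, so these groups overlapped too. The difference was 0.40 ± 0.16 (SE, n = 6 per group; limma adjusted p = 0.376). Cdc45l was detected on 1 saline array and 5 colistin arrays, so it counted as measured through the group in which it was higher.

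Of the 10 measured probes, 0 were called at an adjusted p under 0.05, against 0.457% of all 16179 probes (74 probes). An unadjusted limma p under 0.05 with a higher colistin mean was reached by 3 of the 10, those of Mcm5, Cdc45l and the brightest Mcm6 probe, against 5.56% of all probes. An exact permutation p under 0.05 with a higher colistin mean was reached by 2 of the 10, Mcm5 and Cdc45l, against 5.55%. Cdc45l passed the detection filter only through the colistin group, and without it these counts were 2 of 9 and 1 of 9, and the median difference was 0.17. The colistin mean was the higher at 10 of 10 probes, against 53.1% of all probes, and the median log2 difference over the 10 was 0.21 against 0.01 over all probes. These counts and medians describe the measured probes of 7 genes and cannot speak for Cdc6, Gmnn and Mcm3, and probes read in the same mice are not independent of each other. The highest upper limit of a 95% interval among the 10 was 0.81 (1.76-fold), that of Mcm5, and the lowest was 0.34 (1.27-fold), that of Cdt1. The offset of 16 added to every signal compresses the folds, those of the dim probes of Mcm7 and Cdc45l among them. Brighter probes are not free of this. With an offset of 50 the difference was 0.37 for Mcm5 and 0.085 for Cdt1.

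The genes that surround licensing were set beside the members: 38 genes, of which 21 were measured through 35 probes. In limma 0 of the 35 were called and 5 had an unadjusted p under 0.05 (Dbf4, Gins1, Gins2, E2f1 and Mcm10, each at 1 probe). All of these but Mcm10 were higher in colistin mice, so 4 of the 35 stood against the 5.56% of all probes given above. Of the 35, 24 had the higher mean in colistin mice, against 53.1% of all probes, and their median difference was 0.08. The origin recognition complex, which marks the origins, lay near 0 throughout: its 4 measured genes ran from -0.10 ± 0.10 (SE) for Orc3l to 0.05 ± 0.10 (SE) for the dimmer probe of Orc5l. Among 6 measured genes of helicase activation the smallest p values were those of Dbf4, at 0.45 ± 0.12 (SE, limma adjusted p = 0.131), and Gins2, whose probes stood at 0.39, 0.32 and 0.31 (lowest limma adjusted p = 0.262). The Dbf4 means were 4.95 ± 0.08 in saline and 5.40 ± 0.27 in colistin mice (SD, n = 6 per group). Mcm10, named here after its values were seen, is a firing factor and no subunit of the ring; it had the opposite sign, at -0.38 ± 0.12 and -0.20 ± 0.12 (SE) at its probes (limma adjusted p = 0.268 and 0.537). Of 10 measured genes of licensing turnover and entry into S phase, E2f1, which encodes an activator of the MCM genes, differed by 0.45 ± 0.13 (SE, limma adjusted p = 0.216) and Cdc25a, a phosphatase that activates CDK2, by 0.20 ± 0.10 (SE, limma adjusted p = 0.487). The MCM-binding protein gene Mcmbp (1110007A13Rik on the array) stood at 0.01 ± 0.09 and -0.32 ± 0.16 (SE) at its probes, and Mcm8, Mcm9 and Mcm3ap were not measured.

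Genes of S phase and mitosis were higher in the same colistin mice. Of 8 such genes 7 were measured and 6 were higher in colistin mice (limma, 7 of 10 measured probes), against 0.457% of all probes called in either direction. Of the 10 probes 4, those of Ccnb1 and Top2a and the dimmer probe of Rrm2, were above background in 0 of the 6 saline mice. The count called therefore rests in part on probes that passed the filter only through the colistin group, and the list was made with earlier results known. Only Mki67, Uhrf1 and Tyms had a probe detected on at least 4 arrays of each group. Of these, Mki67 and Uhrf1 were called and Tyms was not. Mki67, whose product Ki-67 marks cycling cells, rose by 1.38 ± 0.14 (SE, adjusted p = 0.000212), from 5.03 ± 0.32 to 6.41 ± 0.19 (SD, n = 6 per group), with every colistin mouse above every saline mouse. Cdc2a (Cdk1, the mitotic kinase) rose by 1.23 ± 0.14 (SE, adjusted p = 0.000633), and Rrm2, the ribonucleotide reductase gene that supplies DNA precursors, by 1.32 ± 0.12 (SE, adjusted p = 8.39e-05) at its brighter probe. Cdc2a and this Rrm2 probe were above background in only 3 and 2 of the 6 saline mice, against all 6 colistin mice. They counted as measured through the group in which they were higher. The topoisomerase gene Top2a passed detection in 0 of the 6 saline mice and all 6 colistin mice and was at least 1.87-fold higher with colistin, taking the lowest detected signal of each saline array as the floor. Uhrf1, which maintains DNA methylation behind the fork, rose by 0.93 ± 0.14 (SE, adjusted p = 0.00595). Tyms, the thymidylate synthase gene, differed by 0.18 ± 0.08 (SE) and was not called (adjusted p = 0.425), and Pcna, the gene of the sliding clamp, was not measured.

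**Figure D3:**
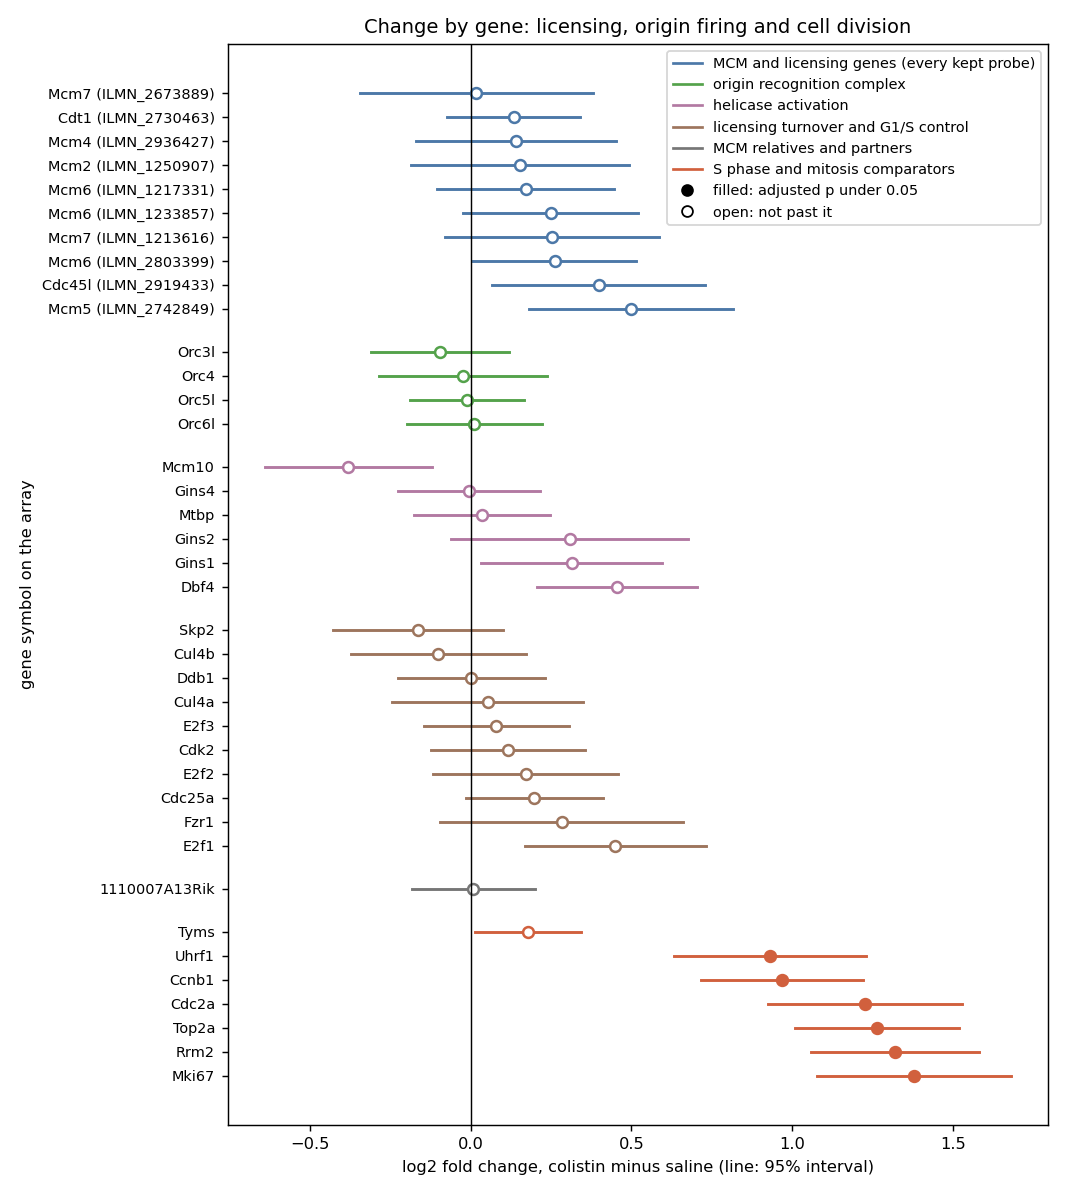
Log2 fold change (colistin minus saline, horizontal axis) with its 95% interval for every measured MCM and licensing probe and for the brightest measured probe of each gene in the neighbouring lists. Filled points passed limma's test at an adjusted p under 0.05. The licensing probes lie between 0.02 and 0.50 with open points. Of the 7 S phase and mitosis genes, 6 lie at 0.93 or above. Among these, Ccnb1 and Top2a were not above background in saline mice, so that their plotted values depend on the offset. Cdc2a and Rrm2 were above background in only 3 and 2 of the 6 saline mice.

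The difference between both kinds of gene was tested mouse by mouse. For each of the 7 measured licensing genes, read by its brightest probe, the log2 signal was subtracted in every mouse from that of Mki67, Uhrf1 or Tyms, the comparators with a probe detected on at least 4 arrays of each group, and the differences were compared between groups by an exact permutation test. This test was added after the values had been seen, it covered 21 pairs, and Mki67 and Uhrf1 were known to rise in these mice when the lists were made. The members were not held to the detection rule of the comparators. Cdc45l, detected on 1 saline and 5 colistin arrays, counted as measured through the group in which it was higher. Its pairs are among the 21 and in the counts below, but add no support of their own. The change of Mki67 exceeded that of all 7 licensing genes, by 0.88 (Mcm5) to 1.24 (Cdt1) on the log2 scale. The exact p-values went up to 0.00866 (Cdc45l), and up to 0.00649 (Mcm7) among the other members. The change of Uhrf1 exceeded that of 6 of the 7, by 0.43 (Mcm5) to 0.80 (Cdt1) (exact p = 0.0173 for Mcm5). For Cdc45l the gap to Uhrf1 was 0.53 (exact p = 0.0584). The change of Tyms was not separated from that of any of them, with gaps from -0.32 (Mcm5) to 0.04 (Cdt1) and exact p-values of 0.0714 or more. After Benjamini-Hochberg adjustment of these exact p-values over the 21 pairs, the gap to Mki67 held for 7 of 7 genes (highest adjusted p = 0.0202), that to Uhrf1 for 5 of 7 (0.0559 for Mcm7 and 0.0877 for Cdc45l) and that to Tyms for 0 of 7.

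The licensing signals differed among the colistin mice, given here as a description with no test. Averaged over the 7 genes, the log2 difference from the saline mean was 0.47 in colistin mouse 4, 0.37 in mouse 5, 0.36 in mouse 3, 0.27 in mouse 6, 0.10 in mouse 1 and 0.003 in mouse 2. The saline mice ran from -0.12 to 0.07. Colistin mice 1 and 2 were thus near the saline level, although their Mki67 signals of 6.28 and 6.30 lay above the saline range, as did that of colistin mouse 4 (6.23), whose licensing average was the highest. The 7 genes include Cdc45l, which counted as measured through the colistin group. Its colistin values ran from 4.57 to 5.34 (mouse 5), all above its saline mean of 4.53.

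The low colistin mice share a BeadChip. Each BeadChip held 3 mice of each group: saline mice 1, 2 and 3 and colistin mice 4, 5 and 6 on the first, the others on the second. On BeadChip 1 the median log2 difference of the 10 probes was 0.38, and all 10 were higher in colistin mice. On BeadChip 2 the median was 0.09, and the differences of Mcm2 (-0.04), the third Mcm6 probe (-0.08) and the dimmer Mcm7 probe (-0.29) were below 0. The direction was the same on both for 7 of the 10 probes, against 63.4% of all probes, and the median over all probes was 0.01 on each BeadChip. Mcm5 differed by 0.68 on the first and 0.32 on the second. Cdc45l changed little between them (0.39 and 0.41). The interaction of treatment and BeadChip reached an adjusted p under 0.05 at none of the 10 probes or of all probes in limma, and the unadjusted p was under 0.05 at 1 of the 10 (the third Mcm6 probe) and at 2.55% of all probes. Mki67 differed by 1.30 on the first BeadChip and 1.46 on the second.

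**Figure D4:**
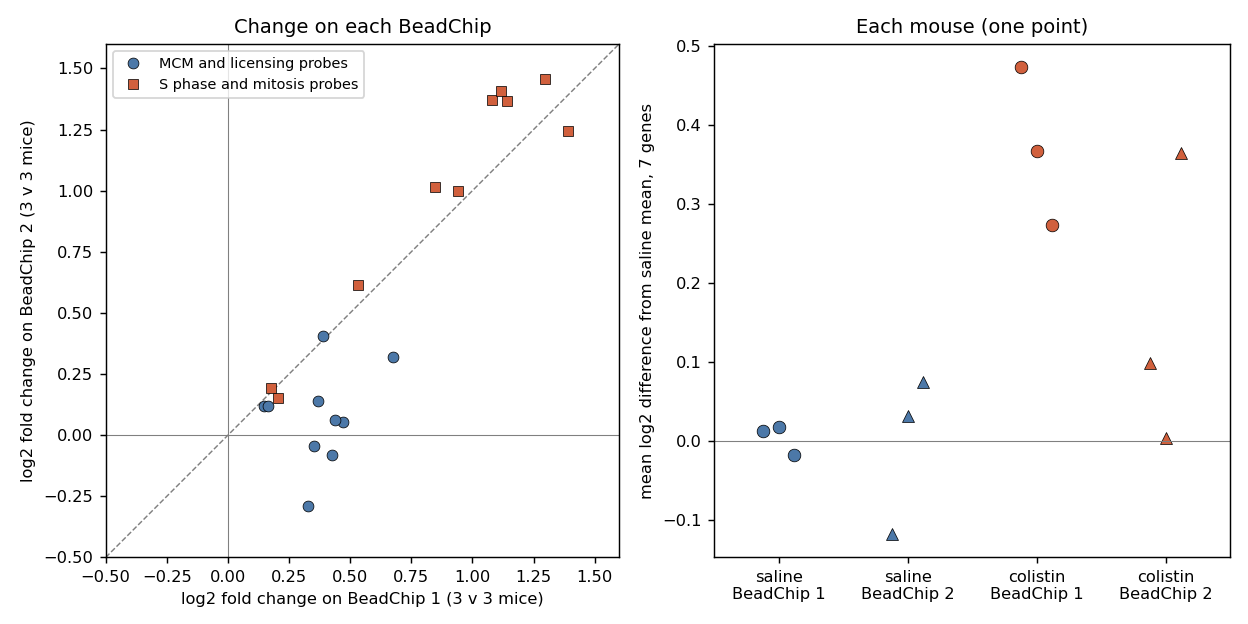
Left, log2 fold change on BeadChip 1 (horizontal) against BeadChip 2 (vertical), each from 3 against 3 mice, for the 10 licensing probes and 10 probes of S phase and mitosis genes, with the line of equal change dashed. Right, the mean log2 difference from the saline mean over 7 licensing genes in each mouse. These include Cdc45l, which counted as measured through the colistin group. Colistin mice 1 and 2 on BeadChip 2 stand at 0.10 and 0.003.

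Within the groups the licensing genes varied together only loosely. Over the 41 pairs of probes of different members, the Pearson r of deviations from the group means (12 mice, shared arrays) ran from -0.51 to 0.73 with a median of 0.22, and 28 pairs were above 0. The closest pair was Cdt1 and Mcm4 (r = 0.73), followed by Mcm6 (ILMN_1233857) and Mcm7 (ILMN_1213616) (0.65) and Mcm2 and Mcm5 (0.65). The probe pairs of Mcm6 and Mcm7 ran from -0.07 to 0.65. Cdc45l was the most distant, with r = -0.51 against the dimmer Mcm7 probe. Among genes outside the set, those whose deviations lay closest to the average of the 7 members were Nr2f2 (r = 0.87), ORF19 (now Washc1, 0.86), Ilvbl (0.84), Sin3a (0.82) and 2410075B13Rik (now Ccdc166, 0.81). None of these 5 was called between the groups (limma adjusted p of 0.486 or more), and their differences ran from -0.18 to 0.10. Nr2f2 encodes a nuclear receptor and Sin3a a transcriptional corepressor. These are the highest values among 16179 probes compared over 12 mice and carry no test.

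Markers of other kidney cells were read on the same arrays. Each gene was read by its brightest measured probe for the medians and counts. The median difference was -0.46 for the 3 measured endothelial markers, -0.38 for the 3 macrophage markers and -0.71 for the 3 fibroblast markers. Of these 0 were called in limma, and 3, 1 and 2 of them had an unadjusted p under 0.05. All 3 endothelial markers were lower in colistin mice. However, 1 macrophage marker, Csf1r (0.15 and 0.35 at its probes), and 1 fibroblast marker, Col1a1 (0.01), were higher. The dimmer Csf1r probe (0.35), outside these counts, was detected on 0 saline and 4 colistin arrays. That probe counted as measured through the group in which it was higher. Averaged over its genes, the endothelial list ran from 5.25 to 6.14 in saline mice and from 5.26 to 5.57 in colistin mice, the macrophage list from 5.26 to 5.79 and from 5.12 to 5.48, and the fibroblast list from 6.58 to 7.22 and from 6.11 to 6.57. The lymphocyte markers Cd3e, Ms4a1 and Ptprc were below detection on 12 of 12 arrays. The proximal tubule markers had a median difference of 0.04. The 2 thick ascending limb markers were both higher in colistin mice, with a median of 0.20. Of these 0 were called in limma and 1 had an unadjusted p under 0.05. Of the 2 measured markers of the distal convoluted tubule 1 was called: Pvalb, the gene of the calcium-binding protein parvalbumin, fell by 1.13 ± 0.19 (SE, n = 6 per group; limma adjusted p = 0.0136), with every colistin mouse below every saline mouse. Averaged over both genes, this list ran from 10.83 to 11.21 in saline mice and from 10.04 to 10.53 in colistin mice. The other gene, Slc12a3, was not called. It differed by -0.25 ± 0.20 (SE, limma adjusted p = 0.633) at its brightest probe, where the groups overlapped. Its other probes ran from -0.46 to 0.14. The part of these differences in the licensing values was not tested.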

How the data were processed

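Total RNA from whole kidneys of 12 mice was measured on 12 arrays. The authors deposited mean bead intensities of 45281 probes per array on a linear scale, without background subtraction, and detection p-values, per the file headers. The authors' normalized intensities and their gene-level intensities served as alternatives. The submitters' processing notes name GenomeStudio and Partek without versions, roles or settings.

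The neqc function of limma 3.58.1 in R 4.3.3 corrected the background through the detection p-values, added an offset of 16, quantile-normalized the arrays and took log2. A probe was kept if its detection p fell below 0.01 on 4 or more arrays, which left 16179 probes and 10 of the 20 member probes. Groups were set by the labels' treatment and compared with lmFit and eBayes (group only, two-sided, Benjamini-Hochberg over all kept probes), with calls at an adjusted p under 0.05. Differences on the log2 scale are colistin minus saline. Single probes were also compared by the exact permutation test over every assignment of 6 and 6 mice. The number of arrays limits the precision.

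Members, gene lists and markers were chosen with earlier results of these data known. A marker gene is not reported here. The text names every member, the called genes of each other list (up to 4) or the 2 with the smallest p, and the 5 genes most like the members. Uhrf1, Tyms, Mcm10, Gins1, Ccnb1, Mcmbp, Slc12a3, Csf1r and Col1a1 lie outside this rule. Pcna, Mcm8, Mcm9 and Mcm3ap are named only as not measured. Promoter sequences are from RefSeq on GRCm38.p6. The labels' replicate numbers were not used to pair the mice in the main fit. The deviations of same-numbered mice correlated from -0.26 to 0.12. Same-numbered mice always lay on different BeadChips, so these values cannot decide whether they were paired. Alternatives covered background correction, offset, normalization, the deposited table used, the detection filter, the BeadChip, the replicate number, weights, the threshold, each mouse left out in turn, and saline mice 2 and 5 together.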

Additional observations from a re-analysis of the deposited data

Results flagged for a closer look

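In the colistin group, mouse 2 had a log2 signal of 6.94 at the brightest Mcm6 probe (ILMN_2803399), and the gap to the next mouse (7.33) was more of the group's range than the limit of Dixon's test for 6 values allows. Of 20 groups of 6 values checked, this was the only one past the limit, and chance alone passes about 1 in 20. The same mouse was the lowest of its group at the other 2 measured Mcm6 probes (6.29 and 6.31). At the dimmer Mcm7 probe (ILMN_2673889) the change was 0.33 on BeadChip 1 and -0.29 on BeadChip 2, a difference of -0.62 ± 0.32 (SE). Limma's interaction test gave an unadjusted p of 0.0779 and an adjusted p of 0.9998. With 3 mice of each group per BeadChip no measured probe of any gene passed that adjustment. The adjusted p therefore cannot show that the BeadChips were alike.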

How the results depend on the processing

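No licensing probe was called under any of 30 other settings; the lowest adjusted p was 0.0920, for Mcm5 under median centring, a setting that moved the median of all probes to 0.20 and that of the members to 0.40, so the members stood 0.20 above all probes, the same gap as without it. All measured member probes were higher in colistin mice under 21 of the 30. The member median was 0.099 without background correction, 0.13 with an offset of 50, 0.037 over the 5 member genes of the gene-level table, 0.097 without the detection filter, 0.38 on BeadChip 1 alone and 0.089 on BeadChip 2 alone.

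The count of all probes called (74) was 25 without background correction, 45 with an offset of 50, 2 in the gene-level table, 33 without the filter, 27 among probes detected on all 12 arrays, 0 on BeadChip 1 alone, 298 on BeadChip 2 alone, 471 with array weights and 138 at an adjusted p under 0.10. With the replicate block it was 36, and 0 member probes were called. Leaving out each mouse in turn gave 38 (without saline mouse 4) to 330 (without saline mouse 1), with 40 to 48 without saline mouse 6 or colistin mouse 2, 3, 5 or 6. S phase and mitosis probes called (7) were 0 in the gene-level table, 1 among probes detected on all 12 arrays and 0 on BeadChip 1 alone. Probes of the neighbouring lists called (0) were 3 with array weights (Dbf4, Gins2 and E2f1, adjusted p = 0.0170, 0.0174 and 0.0398) and 1 (Gins2) without saline mice 2 and 5.

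Member probes with an exact permutation p under 0.05 (2) were 7 under median centring, 1 with an offset of 50 or among probes detected on all 12 arrays, 0 on either BeadChip alone, where p cannot go below 0.1, and 1 to 3 when a mouse was left out (1 without saline mouse 4 or 5 or colistin mouse 1, 3, 4 or 5). Members whose change differed from that of Tyms (0) were 1 without colistin mouse 1 or 2. The dimmer Mcm7 probe turned to -0.0028 without background correction, -0.00089 with an offset of 50, -0.29 on BeadChip 2 alone and, with a mouse left out (range -0.066 to 0.15), below 0 without saline mouse 1, 3 or 6 or colistin mouse 4 or 6. On BeadChip 2 alone Mcm2 was at -0.044 and the third Mcm6 probe at -0.083. The causes of these shifts were not tested. Signal over background limits the reading of these genes, since 10 of 20 member probes were detected on no array.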
